A study of Mus musculus with 30 samples.

Results

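The genes described here take up iron bound to transferrin, carry it to the cytosol and the mitochondrion, oxidise it for export, and sense how much of it the cell holds. They are Tfrc, Steap3, Slc11a2, Slc25a37, Cp, Heph, Ncoa4, Aco1, Ireb2 and Fbxl5, 10 genes named by symbol among the 37991 gene identifiers of a table of read counts. The choice used their names and roles, with earlier results of these data known. The study sorted 3 populations of myeloid cells from the spleens of 12 female mice, 6 WT B6 mice aged 9.4 to 15.7 weeks and 6 TLR7.1 mice aged 10 to 15 weeks. TLR7.1 mice carry a transgene that raises Tlr7, the receptor for single-stranded RNA, and Tlr7 itself was higher in TLR7.1 than in WT cells in Mono (log2 fold change 1.70, adjusted p = 5.94e-06) and in RPM (2.18, adjusted p = 2.6e-07). The question was how the cells named inflammatory hemophagocytes (iHPC), sorted only from TLR7.1 mice, differ from Ly6C-high monocytes (Mono) and red pulp macrophages (RPM) of the same spleens, and how both of these differ between genotypes.

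The 30 libraries form 5 groups of 6 libraries: Mono and RPM of WT mice, and Mono, RPM and iHPC of TLR7.1 mice. All sorted cells carried CD45.2 and lacked SiglecF and Ly6G. Mono were gated on Ly6C, Ccr2 and CD11b, RPM on high VCAM and F4/80 with low CD31, and iHPC on CD11b and high CD31 with low VCAM and F4/80. Of 13 RPM marker genes, 13 were higher in RPM than in Mono in each genotype, and 9 of 9 Ly6C-high monocyte genes were lower. The labels give the mouse of every library, so that the populations of 1 genotype come from the same 6 animals, and each library was made from 500 cells. Library totals ran from 95002 to 1932427 counts. The shallowest belonged to RPM and iHPC, with 3 libraries under 300000 counts (WT RPM of mouse 24323, TLR7.1 RPM and iHPC of mouse 24380). A list of 9 basophil and mast cell genes summed to 2.78 CPM in the iHPC library of mouse 24261. It summed to 2547 to 4685 CPM in the other 5 iHPC libraries. No Mono or RPM library exceeded 21.4 CPM, so that only those 5 iHPC libraries held high sums. Cp (398 CPM) and Steap3 (0 counts) of the iHPC library of mouse 24261 lay within the range of those 5. So did Tfrc, Slc25a37, Ireb2 and Ncoa4. Slc11a2 (49.0 CPM, lowest of the others 53.9) and Fbxl5 (50.0 CPM, lowest of the others 67.0) lay below that range. Aco1 (67.5 CPM, highest of the others 63.2) lay above it. The part of basophil and mast cell RNA in the iHPC comparisons was not tested.

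Most cells take up iron as transferrin bound to the transferrin receptor, which is swallowed into an acidic endosome. There the iron is released, reduced and pumped into the cytosol, and in cells that make haem much of it goes on to the mitochondrion. When iron is scarce, the iron regulatory proteins bind RNA hairpins called iron-responsive elements. Binding in a 3′ untranslated region stabilises a message and binding in a 5′ untranslated region blocks its translation. Red pulp macrophages take most of their iron from the red cells they engulf and return it to the blood through ferroportin, while erythroid precursors are the body's heaviest users of transferrin iron.

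The sequences that tie the uptake gene to the sensors are printed first. Annotated untranslated regions were searched, on the transcribed strand, for a C, 5 bases, the loop CAGTGN and 5 bases able to pair with the first 5, G with T allowed. Of the 10 genes, only Tfrc held this pattern, 4 times in the 2461 bases of its 3′ untranslated region. Among all genes searched, 127 of 21608 (0.588%) held it in a 3′ untranslated region and 28 of 20847 (0.134%) in a 5′ one, and the exporter gene Slc40a1 is shown as an example of the latter. A match is a description of the letters, and no match says only that these letters are not in the annotated region. A hairpin with an unpaired or bulged base within the 5 pairs would be missed. The search therefore does not show which of the other genes lack an iron-responsive element. The capitals mark the bulged C and the 6 bases of the loop. Sequences and positions are from GENCODE M21 transcripts on GRCm38, with Tfrc on the plus strand of chromosome 16 and Slc40a1 on the minus strand of chromosome 1.
Tfrc, chr16:32631219-32631247: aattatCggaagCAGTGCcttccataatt
Tfrc, chr16:32631598-32631626: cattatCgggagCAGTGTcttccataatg
Tfrc, chr16:32631663-32631691: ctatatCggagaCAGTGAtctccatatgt
Tfrc, chr16:32631710-32631738: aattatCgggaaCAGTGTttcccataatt
Slc40a1, chr1:45925465-45925493: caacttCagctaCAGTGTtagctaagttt

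Tfrc, the transferrin receptor (chr16:32608920-32632794), was nearly silent in Mono, higher in WT RPM and iHPC, and highest in TLR7.1 RPM. Levels are in CPM, the count divided by the TMM-scaled library size, given as the lowest, median and highest of 6 libraries. In Tfrc they were 1.28, 3.07 and 7.03 CPM in WT Mono and 1.17, 9.47 and 15.9 CPM in TLR7.1 Mono. WT RPM held 18.01, 50.3 and 139 CPM, TLR7.1 RPM 232, 295 and 426 CPM, and iHPC 43.3, 70.9 and 148 CPM. The TLR7.1 RPM libraries lay above every library of the other 4 groups, and iHPC overlapped with WT RPM but not with either Mono group. Fold changes are log2 estimates ± SE from edgeR's quasi-likelihood fit over all 30 libraries, with p-values adjusted by the Benjamini-Hochberg method over 11030 tested genes and a gene called at an adjusted p under 0.05. Tfrc was higher in RPM than in Mono by 3.99 ± 0.497 in WT (adjusted p = 4.54e-08) and by 5.003 ± 0.444 in TLR7.1 mice (adjusted p = 3.18e-11). In iHPC it was above TLR7.1 Mono by 3.09 ± 0.425 (adjusted p = 4.44e-07) and below TLR7.1 RPM, with a log2 fold change of -1.91 ± 0.379 (adjusted p = 0.00021), and the direction was the same in 6 of 6 mice in both comparisons.

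**Figure D1:**
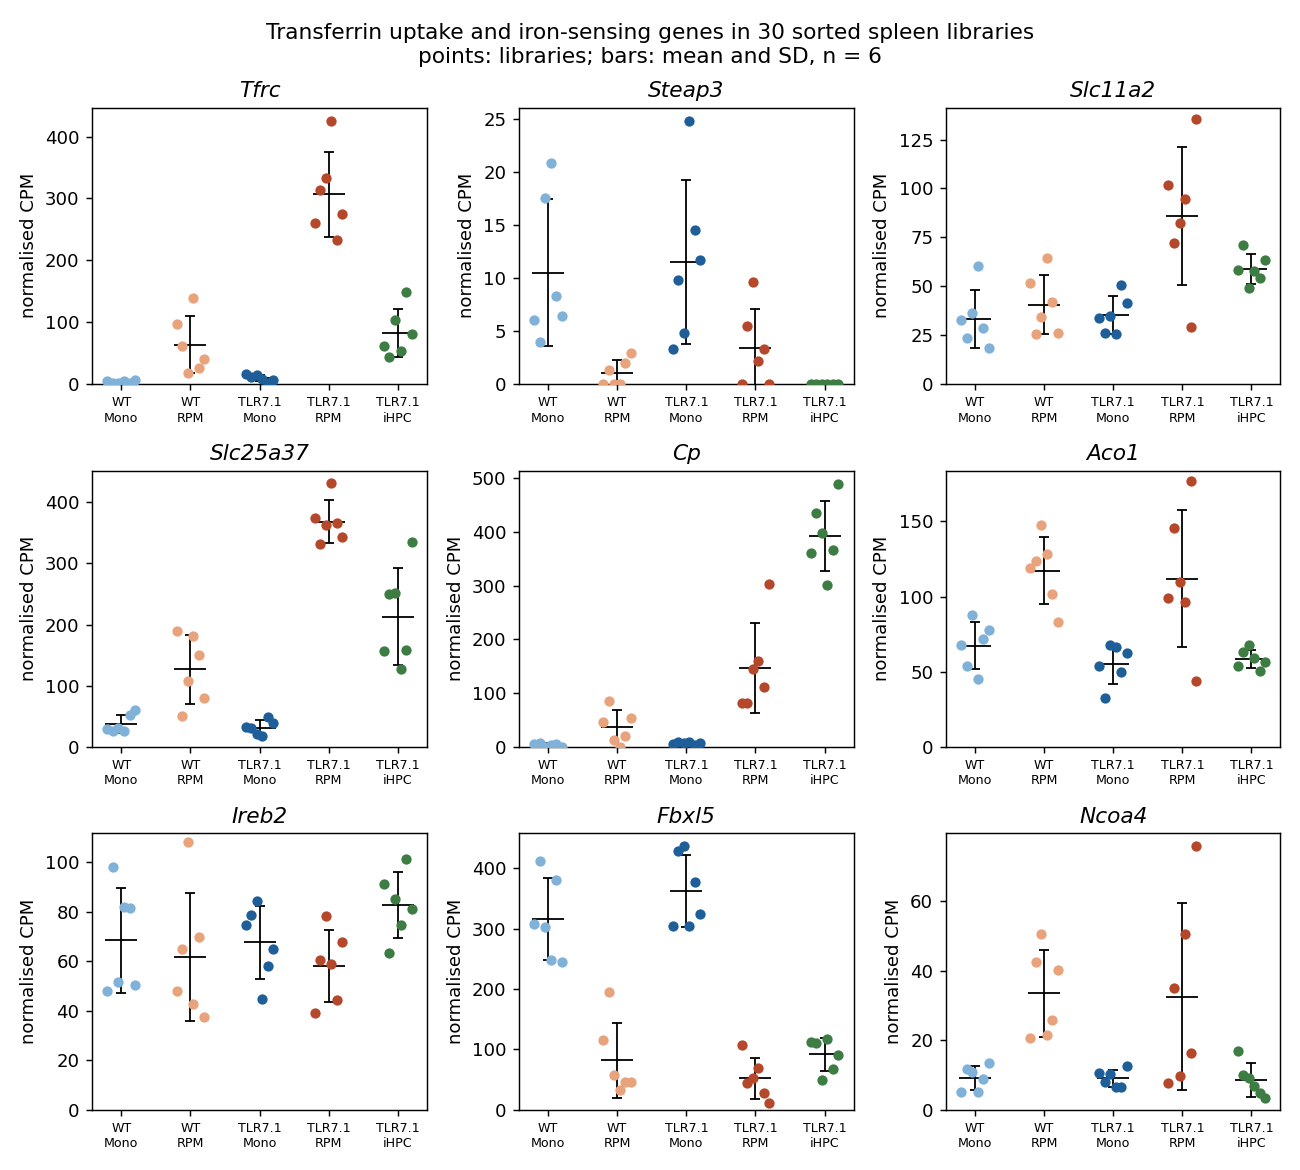
Normalised CPM of the 9 genes with counts, on a linear y axis, by group (x axis); points are libraries, and bars give the mean and SD of 6 libraries. Tfrc, Slc25a37 and Cp stand high in TLR7.1 RPM and iHPC, Fbxl5 in both Mono groups, and Steap3 is at 0 in every iHPC library.

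Steap3, the reductase that turns ferric into ferrous iron inside the endosome (chr1:120190757-120272705), was higher in Mono than in WT RPM and iHPC, where the receptor was lower in Mono. It was at 3.92, 7.39 and 20.9 CPM in WT Mono and 3.31, 10.8 and 24.8 CPM in TLR7.1 Mono. RPM held few counts, 4 over the 6 WT libraries and 19 over the 6 TLR7.1 libraries, and iHPC held 0 in all 6. Steap3 was lower in RPM than in Mono in WT mice, with a log2 fold change of -3.14 ± 0.861 (adjusted p = 0.00359, groups not overlapping). In TLR7.1 mice the same difference was -1.54 ± 0.679 and was not called (adjusted p = 0.063), but was called without mouse 24261 (-2.20, adjusted p = 0.0223). Taking 3 counts over the 6 iHPC libraries as the limit, Steap3 was at least 8.49-fold lower in iHPC than in TLR7.1 RPM (adjusted p = 0.00101) and at least 22.9-fold lower than in TLR7.1 Mono (adjusted p = 1.01e-05). At 0 to 41 counts a library, its levels have a wide counting error.

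Slc11a2, which encodes the transporter DMT1 that moves ferrous iron out of the endosome (chr15:100387898-100425072), changed less than the receptor. Its lowest, median and highest levels were 18.2, 30.7 and 60.2 CPM in WT Mono, 25.7, 38.0 and 64.2 CPM in WT RPM and 25.4, 34.2 and 50.7 CPM in TLR7.1 Mono. They were 29.3, 88.4 and 136 CPM in TLR7.1 RPM and 49.0, 57.9 and 71.0 CPM in iHPC. All of these groups overlap with their neighbours in level. Slc11a2 was higher in RPM than in Mono of TLR7.1 mice, by 1.25 ± 0.304 (adjusted p = 0.00102), while the estimate in WT mice was 0.21 ± 0.322 (adjusted p = 0.628). The iHPC level lay between those of TLR7.1 Mono (0.73 ± 0.301, adjusted p = 0.0526) and TLR7.1 RPM (-0.52 ± 0.303, adjusted p = 0.219) and neither difference was called; the first was called in a fit of only the libraries compared (0.79, adjusted p = 0.00412), without the libraries under 300000 counts (adjusted p = 0.0475), without mouse 24308 (adjusted p = 0.0242) and without the iHPC library of mouse 24261 (adjusted p = 0.0473).

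Slc25a37, mitoferrin-1, which imports iron into the mitochondrion and is best known from erythroid cells (chr14:69241848-69285112), had the same 3 highest groups as Tfrc, in the same order. WT Mono libraries held 25.1, 30.0 and 61.0 CPM and TLR7.1 Mono libraries 16.96, 31.6 and 49.0 CPM. WT RPM held 50.8, 129 and 189 CPM, TLR7.1 RPM 331, 364 and 431 CPM, and iHPC 127, 204 and 335 CPM. All TLR7.1 RPM libraries were above all WT RPM libraries, and the iHPC range touched the TLR7.1 RPM range at its upper end. RPM exceeded Mono by 1.69 ± 0.299 in WT (adjusted p = 2.07e-05) and by 3.54 ± 0.303 in TLR7.1 mice (adjusted p = 1.3e-11). iHPC exceeded TLR7.1 Mono by 2.73 ± 0.296 (adjusted p = 4.13e-09). Against TLR7.1 RPM, iHPC were lower in 6 of 6 mice (log2 fold change -0.81 ± 0.273, adjusted p = 0.0243). That call was lost when mouse 24068 (-0.73, adjusted p = 0.0899), mouse 24304 (-0.63, adjusted p = 0.116) or mouse 24308 (-0.74, adjusted p = 0.0759) was left out.

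Cp, ceruloplasmin, a copper enzyme that oxidises iron leaving the cell so that transferrin can bind it (chr3:19957054-20009145), was the one gene of the set that was called higher in iHPC than in TLR7.1 RPM. It held 0, 4.24 and 7.85 CPM in WT Mono and 2.91, 7.499 and 9.69 CPM in TLR7.1 Mono. WT RPM ranged widely, at 0, 33.2 and 84.9 CPM. TLR7.1 RPM held 80.6, 127 and 303 CPM and iHPC 302, 382 and 489.5 CPM. The lowest iHPC library lay just below 1 TLR7.1 RPM library, that of mouse 24380, whose 76 counts in a library of 268275 gave the 303 CPM, and no other library reached the iHPC range. Cp was higher in iHPC than in TLR7.1 RPM by 1.46 ± 0.380 (adjusted p = 0.00374, 6 of 6 mice) and higher than in TLR7.1 Mono by 5.82 ± 0.474 (adjusted p = 6.09e-12). It was also higher in RPM than in Mono, by 3.51 ± 0.513 in WT (adjusted p = 9.3e-07) and 4.37 ± 0.461 in TLR7.1 mice (adjusted p = 1.56e-09). Hps3 lies on the opposite strand and shares 108 exonic bases with Cp, 1.13% of the exonic length of Cp, and the strand setting of the counting is not given in the sources used here. Hps3 was lower in TLR7.1 RPM than in WT RPM (-1.31 ± 0.201, adjusted p = 0.000127) and higher in iHPC than in TLR7.1 RPM (0.70 ± 0.197, adjusted p = 0.00731), and the part of the shared bases in the Cp differences was not tested. Heph, hephaestin, the membrane-bound relative of ceruloplasmin (chrX:96455359-96574485), had 0 counts in all 30 libraries, which allows up to 0.0914 CPM over all of them together.

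The sensors differed from one another. Aco1 encodes iron regulatory protein 1 (chr4:40143081-40198338), an aconitase that binds RNA once it has lost its iron-sulphur cluster. It held 45.1, 69.6 and 87.6 CPM in WT Mono, 83.2, 121 and 148 CPM in WT RPM, 32.6, 57.9 and 67.7 CPM in TLR7.1 Mono, 43.9, 104 and 177 CPM in TLR7.1 RPM and 50.7, 57.7 and 67.5 CPM in iHPC. RPM were therefore high in both genotypes, with 1 or more libraries inside the Mono range, and iHPC were at the level of Mono. Aco1 was higher in RPM than in Mono by 0.79 ± 0.241 in WT (adjusted p = 0.0071) and 1.05 ± 0.238 in TLR7.1 mice (adjusted p = 0.000502). It was lower in iHPC than in TLR7.1 RPM in 5 of 6 mice (log2 fold change -0.97 ± 0.242, adjusted p = 0.00258).

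Ireb2, iron regulatory protein 2 (chr9:54863789-54912530), which lacks the cluster and is controlled by its own breakdown, was called in none of the 7 comparisons. Group means ran from 58.2 ± 14.5 CPM in TLR7.1 RPM to 82.7 ± 13.2 CPM in iHPC (SD, n = 6 each). The difference of iHPC from TLR7.1 RPM was 0.51 ± 0.253 (adjusted p = 0.14), with iHPC higher in 6 of 6 mice. Per length, Aco1 held 80.4% ± 4.78 of the summed Aco1 and Ireb2 reads per kilobase in WT RPM and 77.8% ± 11.1 in TLR7.1 RPM. The same share was 67.0% ± 11.3 in WT Mono, 62.7% ± 9.56 in TLR7.1 Mono and 59.9% ± 5.83 in iHPC (SD, n = 6 each).

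Fbxl5 (chr5:43744615-43821638) encodes the iron-binding subunit of the ubiquitin ligase that marks iron regulatory protein 2 for breakdown when iron is plentiful. Its group means were highest in both Mono groups, as were those of Steap3. Mono held 245, 305 and 413 CPM in WT and 304, 351 and 437 CPM in TLR7.1 mice. RPM held 32.1, 51.8 and 195 CPM in WT and 12.0, 48.6 and 107 CPM in TLR7.1 mice, and iHPC 50.0, 101 and 118 CPM. Every Mono library was above every RPM and iHPC library. Log2 fold changes were -1.80 ± 0.323 for RPM against Mono in WT (adjusted p = 2.59e-05), -2.79 ± 0.337 in TLR7.1 mice (adjusted p = 2.55e-08) and -1.98 ± 0.316 for iHPC against TLR7.1 Mono (adjusted p = 5.47e-06). iHPC were above TLR7.1 RPM in 5 of 6 mice, by 0.81 ± 0.336, which was not called (adjusted p = 0.072). It was called with the mouse as a block (0.84, adjusted p = 0.0466), with the collection date as a covariate (adjusted p = 0.0434), without mouse 24068 (adjusted p = 0.0423) and without the iHPC library of mouse 24261 (adjusted p = 0.0424). Fbxl5 shares 98 exonic bases (1.01% of its exonic length) with Bst1 on the opposite strand, whose mean was 91.9 CPM in WT Mono, 143 CPM in TLR7.1 Mono and 0.310 to 0.800 CPM in the other groups; the part of these shared bases in the Fbxl5 difference was not tested.

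Ncoa4, the receptor that delivers ferritin to the lysosome so that stored iron is released (chr14:32159865-32179855), had its highest group means in RPM. It held 5.01, 9.89 and 13.5 CPM in WT Mono and 20.6, 33.0 and 50.4 CPM in WT RPM, which did not overlap. TLR7.1 Mono held 6.41, 9.09 and 12.6 CPM, TLR7.1 RPM 7.81, 25.6 and 75.8 CPM, and iHPC 3.52, 7.98 and 16.9 CPM. TLR7.1 RPM was the most scattered of these groups, and iHPC overlapped with Mono, reaching below and above its range. Ncoa4 was higher in RPM than in Mono by 1.88 ± 0.467 in WT (adjusted p = 0.00125, 6 of 6 mice). In TLR7.1 mice it was higher by 1.79 ± 0.465 (adjusted p = 0.0019), in 4 of 6 mice and with overlap. It was lower in iHPC than in TLR7.1 RPM in 5 of 6 mice (log2 fold change -1.81 ± 0.477, adjusted p = 0.00403).

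**Figure D2:**
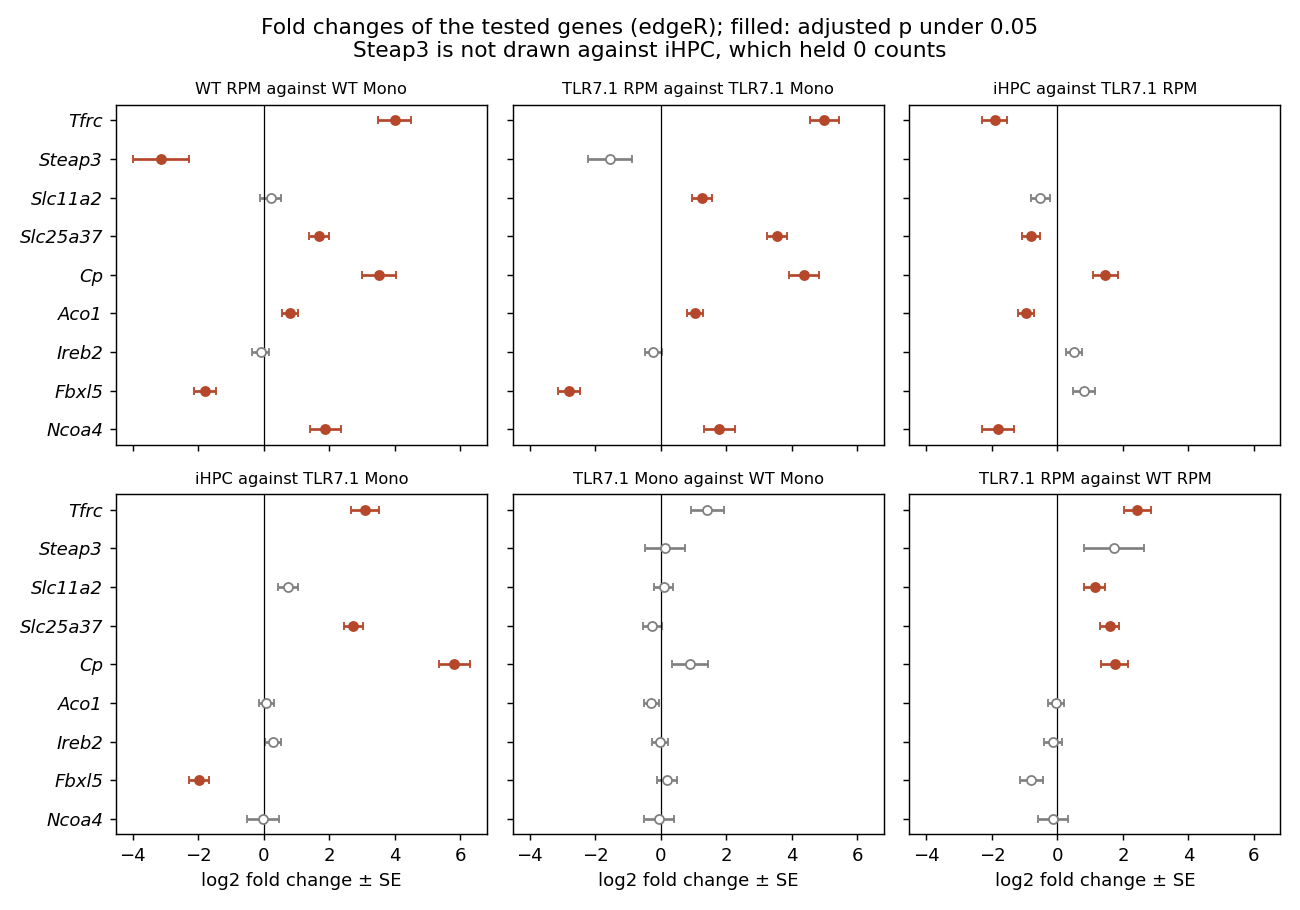
Log2 fold changes (x axis) with SE bars from the edgeR fit for the 9 tested genes in 6 comparisons, filled where the adjusted p was under 0.05. In the comparison of RPM between genotypes Tfrc, Slc11a2, Slc25a37 and Cp are filled and lie to the right of 0, and in that of Mono no gene is filled.

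With CPM divided by exon length in kilobases (RPKM), the set had a different leading gene in each population. In TLR7.1 RPM the highest group means were those of Slc25a37 (61.1 RPKM) and Tfrc (49.6 RPKM), and in iHPC those of Cp (41.0 RPKM) and Slc25a37 (35.4 RPKM). In both Mono groups Fbxl5 led, with 32.5 RPKM in WT and 37.2 RPKM in TLR7.1 mice, while Tfrc stood at 0.569 and 1.53 RPKM. In WT RPM Aco1 (26.1 RPKM) and Slc25a37 (21.0 RPKM) came first and Tfrc was at 10.2 RPKM.

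Counted over the 9 genes that passed the filter on low counts, 7 were called between RPM and Mono in WT mice, 5 higher and 2 lower in RPM, where 46.2% of all tested genes were called, 23.7% higher and 22.5% lower. In TLR7.1 mice 7 were called, 6 higher and 1 lower, against 46.6% of all genes, 23.9% higher and 22.6% lower. Between iHPC and TLR7.1 Mono 5 were called, 3 higher and 2 lower, against 38.7%, 19.3% higher and 19.4% lower. Between iHPC and TLR7.1 RPM 6 were called, 1 higher (Cp) and 5 lower (Tfrc, Steap3, Slc25a37, Aco1 and Ncoa4), against 27.1%, 13.6% higher and 13.5% lower. The groups did not overlap for 4 of the 9 genes between RPM and Mono in WT (26.1% of all genes) and in TLR7.1 mice (27.2%), for 5 between iHPC and TLR7.1 Mono (31.9%), for 1 between iHPC and TLR7.1 RPM (11.2%) and for 0 between the Mono groups (4.17%). The median log2 fold change of the 9 genes was -0.81 for iHPC against TLR7.1 RPM, also with Steap3 at its bound, and -0.00 over all tested genes. These comparisons share libraries.

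Between genotypes, none of the 9 genes was called in Mono by edgeR or by DESeq2, where edgeR called 2.1% of all genes, 1.8% higher and 0.299% lower. Only 1 of the 9, Tfrc, had an unadjusted p under the threshold of 0.05 in edgeR's fit. Its log2 fold change was 1.43 ± 0.510 (adjusted p = 0.221), and without mouse 24308 it was called (1.67, adjusted p = 0.0485). In RPM 4 of the 9 were called, all higher in TLR7.1 mice, where 8.25% of all genes were called, 4.48% higher and 3.77% lower. They are the receptor Tfrc, the endosomal transporter Slc11a2, the mitochondrial importer Slc25a37 and the ferroxidase Cp. The sensors and the ferritin receptor were not called, with log2 fold changes of -0.03 for Aco1, -0.14 for Ireb2, -0.13 for Ncoa4 and -0.80 ± 0.343 for Fbxl5 (adjusted p = 0.154).

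Tfrc was higher in TLR7.1 RPM than in WT RPM by 2.44 ± 0.409 (adjusted p = 0.000254), a 5.42-fold difference, and Slc25a37 by 1.60 ± 0.290 (adjusted p = 0.000583), a 3.03-fold difference; neither pair of groups overlapped, as was so for 1.72% of all genes. Cp was higher by 1.74 ± 0.417 (adjusted p = 0.00764) and Slc11a2 by 1.14 ± 0.325 (adjusted p = 0.0253), both with overlap. In a fit of the RPM libraries alone Cp (adjusted p = 0.0608) and Slc11a2 (adjusted p = 0.184) were no longer called. Slc11a2 was also lost without mouse 24214 (1.10, adjusted p = 0.0631) or mouse 24304 (1.10, adjusted p = 0.052). It was lost too with the mouse as a block (1.01, adjusted p = 0.0641), a fit by limma in place of edgeR.

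The mice were collected on 3 days, which allowed ratios of TLR7.1 to WT means within a day, over 2 TLR7.1 mice each and 2, 1 and 3 WT mice on 13, 21 and 26 December. In RPM they were 3.66, 2.36 and 10.8 for Tfrc and 2.94, 2.19 and 3.13 for Slc25a37, above 1 on every day. For Slc11a2 they were 2.24, 0.962 and 3.21, so that the single WT mouse of 21 December was level with the TLR7.1 mice of that day. For Cp the ratio was 1.23 on the first day and 7.71 on the last, and the WT library of 21 December held no Cp count. With the collection date as a covariate Tfrc (2.42), Slc25a37 (1.65), Cp (1.87) and Slc11a2 (1.12, adjusted p = 0.0341) stayed called.

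Markers of erythroid cells differed between the same groups. The list holds 18 genes of the table, among them globins, Alas2, Klf1 and Epor, and its summed level was 14.9 to 295 CPM in WT Mono, 72.7 to 363 CPM in TLR7.1 Mono, 505 to 6477 CPM in WT RPM, 3998 to 6287 CPM in TLR7.1 RPM and 1218 to 3645 CPM in iHPC. All 18 were higher in RPM than in Mono of TLR7.1 mice (23.9% of all tested genes) and 16 in WT mice (23.7%). In TLR7.1 RPM 10 were higher than in WT RPM (4.48%). In iHPC 10 were lower than in TLR7.1 RPM (13.5%) and 15 were higher than in TLR7.1 Mono (19.3%). None was called in the opposite direction in these comparisons. Rhag was at 0 in WT Mono and Gata1 in TLR7.1 Mono, and no gene of the list was at 0 in the other groups. Klf1, an erythroid transcription factor, averaged 12.0 CPM in WT RPM, 144 CPM in TLR7.1 RPM and 4.54 CPM in iHPC. Alas2, the first enzyme of haem synthesis in erythroid cells, averaged 89.5, 321 and 353 CPM in the same groups. In sorted bulk samples a larger share of a cell type and more RNA per cell cannot be told apart, and the part of erythroid RNA in the levels of Tfrc and Slc25a37 was not tested.

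One WT RPM library stood with the TLR7.1 libraries on this list. That of mouse 24323, with 95002 counts, held the highest erythroid sum of all (6477 CPM) and the highest Tfrc (139 CPM, 13 counts) and Slc11a2 (64.2 CPM, 6 counts) of its group, with 182 CPM of Slc25a37 and 0 counts of Cp. The lowest TLR7.1 RPM library held 232 CPM of Tfrc. Without the 3 libraries under 300000 counts the genotype difference in RPM was 2.71 for Tfrc (adjusted p = 0.000213), 1.75 for Slc25a37 (adjusted p = 0.000505), 1.37 for Cp (adjusted p = 0.0279) and 1.12 for Slc11a2 (adjusted p = 0.0289). A list of 15 cell cycle genes also moved with genotype. In TLR7.1 RPM 11 were higher than in WT RPM, beside 4.48% of all tested genes. In TLR7.1 Mono 13 were higher than in WT Mono, beside 1.8% of all tested genes. The part of these genes in the iron genes' levels was not tested.

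**Figure D3:**
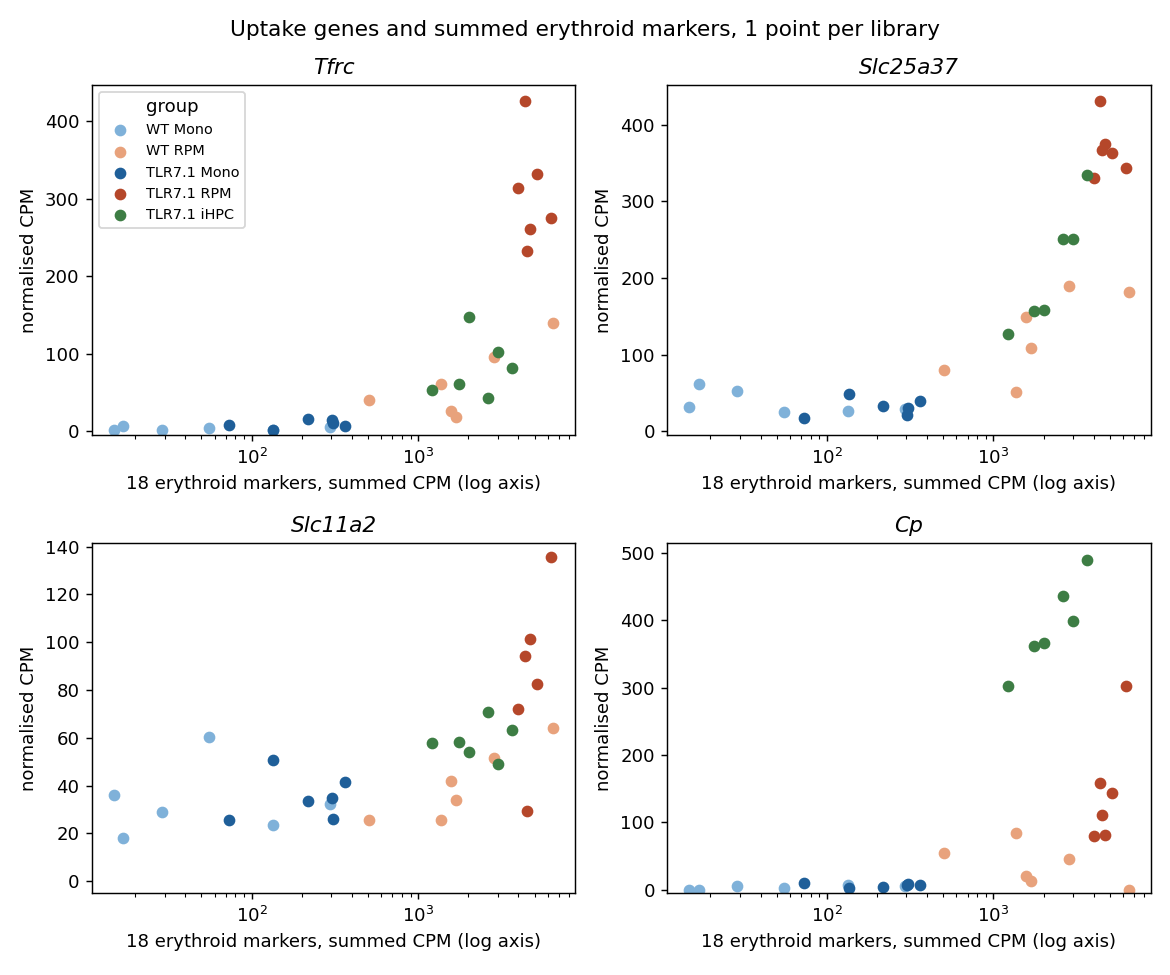
Tfrc, Slc25a37, Slc11a2 and Cp (y axes, normalised CPM) against the summed CPM of 18 erythroid marker genes (x axis, log scale), 1 point per library, coloured by group. TLR7.1 RPM libraries lie between 3998 and 6287 CPM of the erythroid sum and WT RPM libraries between 505 and 6477 CPM.

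Whether the genotype difference itself was larger in RPM than in Mono was tested as an interaction over both. Slc25a37 alone was called, with a difference of 1.86 ± 0.411 on the log2 scale (adjusted p = 0.0224, 95% interval 1.05 to 2.66), where 0.689% of all genes were called, 0.399% with a positive and 0.29% with a negative difference. It was no longer called without mouse 24261 (1.76, adjusted p = 0.0636), 24304 (1.68, adjusted p = 0.0513), 24415 (1.86, adjusted p = 0.0509) or 24416 (1.60, adjusted p = 0.0739). For Tfrc the interaction was 1.01 ± 0.687 (adjusted p = 0.68, 95% interval -0.34 to 2.36), so that its difference between genotypes was not shown to differ between RPM and Mono. None of the 18 erythroid genes was called in this test.

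The genes most like each member across the 30 libraries, by Pearson correlation of log2(CPM + 1), are given as a description, since the libraries share groups and mice. For Tfrc they were Bola3 (0.913), Car2 (0.907) and Trim10 (0.905), and for Slc25a37 Slc4a1 (0.933), Trim10 (0.930) and Epb41 (0.909). Slc4a1, the anion exchanger of the red cell membrane, was also among the 3 nearest to Slc11a2 (0.748), after Prdx2 (0.763) and beside Pdzk1ip1 (0.748). Cp had other neighbours, namely Cd200r1 (0.927), Fpr2 (0.901) and Mllt3 (0.887). For Aco1 they were Tmem42 (0.818), Aspa (0.811) and Slc48a1 (0.768), the last a haem transporter, and for Fbxl5 Tmem173 (0.922), Bud23 (0.921) and Ggh (0.917). Steap3 was nearest to Me2 (0.865), Ncf1 (0.843) and Chmp1a (0.843), Ncoa4 to Pdcd2l (0.821), Samd4 (0.783) and Prnp (0.781), and Ireb2, the least patterned, to Ubash3b (0.651), Nup37 (0.624) and Zfp62 (0.616).

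A wider list of 58 genes of iron entry, storage, iron-sulphur assembly and export held 46 tested genes. In RPM against Mono 14 were higher and 11 lower in WT mice, where 46.2% of all tested genes were called, and 17 higher and 9 lower in TLR7.1 mice (46.6%). In iHPC 3 were higher and 14 lower than in TLR7.1 RPM (27.1%), and 11 higher and 9 lower than in TLR7.1 Mono (38.7%). Between genotypes 5 were higher and 0 lower in TLR7.1 RPM (8.25%), and 2 higher and 0 lower in TLR7.1 Mono (2.1%). These counts are near those shares of all genes in the comparisons with Mono. The median log2 fold change of the list was -0.41 for iHPC against TLR7.1 RPM and 0.15 for TLR7.1 against WT RPM, beside -0.00 and -0.01 over all tested genes.

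Of the 19 genes of mitochondrial iron and iron-sulphur assembly, which act on the iron that Slc25a37 brings in, 4 were higher in TLR7.1 than in WT RPM (Slc25a39, Glrx5, Abcb10 and Isca1) and 0 lower, where 8.25% of all genes were called. Abcb10, an inner membrane transporter of erythroid cells known to stabilise mitoferrin-1, rose most in this comparison, from a mean of 25.4 ± 20.4 CPM to 95.5 ± 25.1 CPM (SD, n = 6 each), by 1.85 ± 0.470 (adjusted p = 0.0117). Its interaction was 2.95 ± 0.660 (adjusted p = 0.0231), and with Slc25a39 it was 1 of 2 genes of the wider list called there. The interaction of Abcb10 also holds a lower mean in TLR7.1 Mono (9.46 ± 4.93 CPM) than in WT Mono (20.1 ± 11.3 CPM, SD, n = 6 each). That difference in Mono was not called. In iHPC against TLR7.1 RPM 9 of the 19 were lower, including Glrx5, Iscu and Abcb10, and 1, Slc25a28 (mitoferrin-2), was higher, where 27.1% of all genes were called. In the list of the ligase and cytosolic assembly partners 6 of 10 were lower and 2 higher in RPM than in Mono of WT mice (46.2% of all genes called), and 3 lower and 2 higher in TLR7.1 mice (46.6%).

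The transferrin and export genes drew the sharpest lines between populations. Slc40a1, ferroportin, the only known iron exporter, averaged 2551 ± 540 CPM in WT RPM, 1812 ± 425 CPM in TLR7.1 RPM, 48.7 ± 35.2 CPM in iHPC and 1.21 to 2.09 CPM in Mono (SD, n = 6 each). It was higher in RPM than in Mono by 11.15 ± 0.669 in WT (adjusted p = 3.54e-14) and 9.70 ± 0.616 in TLR7.1 mice (adjusted p = 1.35e-13), and in iHPC than in TLR7.1 Mono by 4.32 ± 0.633 (adjusted p = 2.63e-06). The iHPC, which had the highest Cp, were thus below TLR7.1 RPM in Slc40a1, by a log2 fold change of -5.38 ± 0.474 (adjusted p = 4.98e-10). Trf, transferrin itself, fell from 226 ± 132 CPM in TLR7.1 RPM to 3.61 ± 2.19 CPM in iHPC (-6.03 ± 0.469, adjusted p = 5.19e-12), below TLR7.1 Mono as well (-2.86 ± 0.484, adjusted p = 1.35e-05). Lcn2, a siderophore carrier, had 0 counts in both RPM groups against 25 in WT Mono, 872 in TLR7.1 Mono and 129 in iHPC. With 3 counts over the group as the limit, Lcn2 was at least 3.27-fold higher in WT Mono than in WT RPM, and at least 138-fold higher in TLR7.1 Mono and 32.1-fold higher in iHPC than in TLR7.1 RPM. It was also the wider list's largest rise between genotypes in Mono, from 3.10 ± 3.40 to 93.6 ± 62.5 CPM (4.94 ± 0.791, adjusted p = 0.000437). Lcn2 is abundant in neutrophils. An 11-gene neutrophil list, which includes Lcn2 itself, summed to 254 to 474 CPM in WT Mono and 535 to 2300 CPM in TLR7.1 Mono. The part of neutrophil RNA was not tested.

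**Figure D4:**
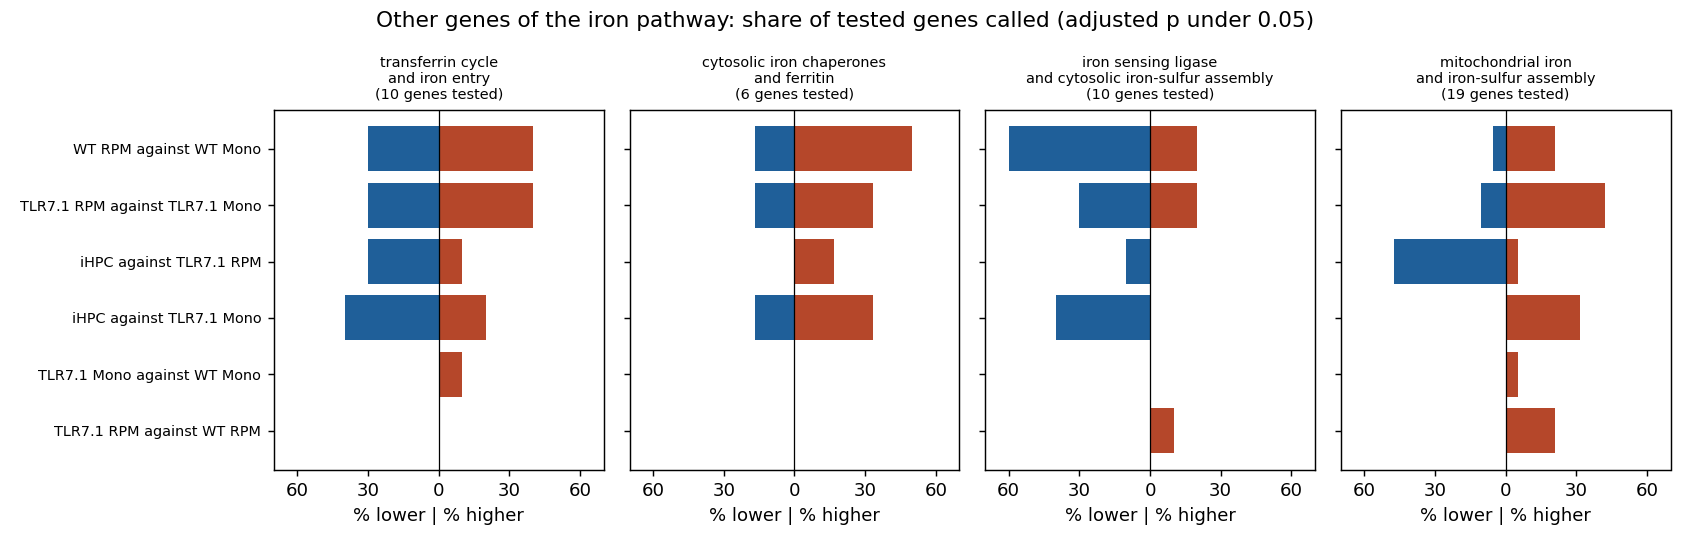
Percentage of tested genes called higher (right) or lower (left) in 6 comparisons (y axis) for the 4 lists of the wider pathway with more than 1 tested gene. Mitochondrial genes are mostly to the left in iHPC against TLR7.1 RPM (9 of 19 lower, 1 higher) and only to the right in TLR7.1 against WT RPM (4 higher).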

How the data were processed

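RNA of 500 sorted cells per library was amplified as full-length cDNA with SMART-Seq v4 and made into libraries with Nextera XT, per the labels' protocols. Build NCBIM37 and the tools TopHat, Bowtie, HTSeq 0.4.1, SAMtools, Picard, FastQC and CASAVA 1.8.2 come from the submitters' processing notes, which give no role or order. The strand setting and annotation release were not given in those notes or in the labels. The authors deposited whole-number read counts per Ensembl gene, without normalization. Symbols, exon lengths and positions came from GENCODE M21 on GRCm38, joined by identifier (32938 of 37991 matched), so no coordinate is on the authors' build. Counts were filtered (filterByExpr, 11030 genes kept), scaled by TMM and fitted with edgeR 4.0.16 (quasi-likelihood, robust, 5 group means, 30 libraries, two-sided tests, Benjamini-Hochberg) in R 4.3.3. Alternatives used DESeq2 1.42.0 and limma 3.58.1, the latter for the mouse as a block between genotypes. The fit was tested on simulated data. Library totals had group medians of 544757 (WT RPM) to 1656511.5 counts (TLR7.1 Mono). The labels pair libraries by mouse; over 24 pairs the correlation of residuals ran from -0.0774 to 0.209, over 0.1 in 3. Named genes were all 10 members, the 3 nearest genes of each (mean CPM at least 20), the called gene of the wider list with the largest rise and fall per comparison, and Slc40a1 and Tlr7 as checks. The other genes named from the lists were chosen after their values were seen. The members and lists were chosen with earlier results of these data known. Intervals and count limits cover counting or fit error only.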

Additional observations from a re-analysis of the deposited data

Results flagged for a closer look

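In the 6 TLR7.1 RPM libraries, Cp of mouse 24380 (303 CPM) lay far above the others, which held 80.6 to 159 CPM; chance alone puts about 1 in 20 groups of 6 past this limit, and 44 groups were tried. The library had 268275 counts, the lowest of its group. Without that mouse, Cp was higher in TLR7.1 than in WT RPM by 1.47 on the log2 scale (adjusted p = 0.0231, edgeR).

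The genotype difference in Slc25a37 was larger in RPM than in Mono by 1.86 on the log2 scale in a test of the interaction itself, with group means of 127 and 368 CPM in WT and TLR7.1 RPM and 37.3 and 31.6 CPM in WT and TLR7.1 Mono.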

How the results depend on the processing

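No direction of a called value reversed under DESeq2, no filter on low counts, a fit of only the libraries compared, the mouse as a replicate block, the collection date as a covariate, a required fold of 1.5, or leaving out the shallow libraries, the iHPC library of mouse 24261 or any of the 12 mice. Over the log2 fold changes of single iron genes, 378 stayed on their side of the threshold under these settings, 6 gained a call and 3 lost one. With mice left out, 527 stayed, 4 gained and 9 lost. The required fold of 1.5 gave only counts of calls and adds none of these values. In the fit of only the libraries compared, 2 of the 4 iron genes called between genotypes in RPM remained, Tfrc and Slc25a37; the cause was not tested. The number of iron genes called ran from 0 to 1 between genotypes in Mono and from 0 to 1 for the interaction when mice were left out, for the mice named in the report; the cause was not tested. With the mouse as a replicate block 3 iron genes were called between genotypes in RPM and 7 between iHPC and TLR7.1 RPM, and no other call of an iron gene changed beside Slc11a2 and Fbxl5. Between genotypes the replicate block was fitted by limma in place of edgeR, so that tool and block changed together. Over all genes, the calls moved from 2993 to 1753 (iHPC against TLR7.1 RPM), 232 to 737 (Mono between genotypes) and 910 to 160 (RPM between genotypes) with only the libraries compared, from 232 to 403 in Mono with the replicate block, from 910 to 584 in RPM without mouse 24214, and for the interaction from 76 to 209 under DESeq2 and between 29 and 145 with mice left out. In a library under 300000 counts 3 counts are over 10 CPM, so that levels of Steap3, and of Ncoa4 and Cp where low, were under the limit of detection there.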
